A study of Mus musculus with 12 samples.

Results

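The integrin subunits described here are 10 genes, the α subunit genes Itgae, Itga4, Itga6, Itgal and Itgav and the β subunit genes Itgb1, Itgb2, Itgb3, Itgb7 and Itgb8, taken by symbol from a table of 55228 gene symbols without use of their values. The study sequenced RNA of cultured mouse regulatory T cells (Tregs) in 12 libraries, 3 for each of 4 groups, to compare IL-2 signals delivered in different ways. All cells were Foxp3-GFP+CD25+ Tregs from the lymph nodes of NOD.Foxp3-GFP mice, a diabetes-prone strain whose Foxp3-expressing cells are marked by GFP; 16 mice were pooled, and 3 sorted parts of that pool, activated separately, were the replicates, so that errors and p-values below describe cultures and not animals. All cells were activated, transduced with a retrovirus on day 2 and sorted for its Thy1.1 marker on day 9. EV no IL-2 Tregs carried the empty vector and were washed free of IL-2 on day 4. EV+IL-2 Tregs carried the same vector and stayed in IL-2. The 1G12t and 3A10t Tregs were also washed on day 4 and carried an orthogonal IL-2, variant 1G12 or 3A10, tethered to its receptor. The sources used here tie no age or sex to the NOD.Foxp3-GFP donors of these libraries.

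Integrins are paired membrane receptors, each of 1 α and 1 β subunit, that hold cells to other cells and to extracellular matrix, and they pass signals in both directions once talin and kindlin bind the β tail. In lymphocytes, αLβ2 (LFA-1) binds ICAMs, α4β1 (VLA-4) binds VCAM-1 and fibronectin, α4β7 binds MAdCAM-1 on gut vessels, and αEβ7 (CD103) binds E-cadherin on epithelium. On Tregs, αvβ8 is known to release active TGF-β from its latent form.

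All values below are TPM, an expression unit already corrected for transcript length and library total, divided by a scaling factor per library between 0.854 and 1.09. The table keeps no read depth, so the spread over 3 libraries is the only error given. All 10 subunits passed the filter of a mean of at least 1 TPM over the 12 libraries and were tested with 15043 genes in all. Itgb8, with the lowest level, passed through 3 groups, since its mean in EV+IL-2 Tregs was 0.569 TPM. The Treg label was met by Foxp3, at 315 to 538 TPM, and Il2ra, at 308 to 716 TPM as deposited. Of the markers of other cells, the 4 platelet genes summed to 0.53 to 3.04 TPM, the 2 NK cell genes to 0.04 to 0.50 TPM and the 2 CD8 T cell genes to 3.71 to 5.72 TPM. The 4 B cell genes summed to 9.35 to 14.8 TPM, the 3 mast cell genes to 0.34 to 2.02 TPM, and the 4 stromal and endothelial genes to 45.68 to 118.34 TPM, nearly all of it Pecam1 at 43.87 to 116.63 TPM, while Col1a1 stood at 0.11 to 1.56 TPM and Cdh5 at 0.02 to 0.73 TPM. Of the 4 myeloid genes, Cst3 was at 480 to 651 TPM and Lyz2 at 0 to 0.41 TPM. The EV+IL-2 libraries stood apart in listing fewer symbols above 0, at 30393 to 36239 against 37930 to 43285 in the other 9 libraries. The 3A10t libraries had the largest share of TPM in their top 10 genes, at 10.78% to 13.51% against 8.85% to 9.92% in the other 9, and among them replicate 1 stood apart from replicates 2 and 3, as described below with the results it touches.

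The sequences shown are the 250 bases upstream of the start of Itga4 and Itgb1 in RefSeq (GRCm38.p6), an α subunit whose RNA was lower in EV+IL-2 Tregs and its β partner in VLA-4, whose RNA did not pass the test there. Itga4 lies on the + strand of chromosome 2 (79255426 to 79333123) and the bases are chr2:79255176-79255425. Itgb1 lies on the + strand of chromosome 8 (128685654 to 128733200) and the bases are chr8:128685404-128685653. Capitals mark matches on either strand to the GC box letters GGGCGG or the RUNX core letters TGTGGT, which reads ACCACA on the strand printed.
Itga4: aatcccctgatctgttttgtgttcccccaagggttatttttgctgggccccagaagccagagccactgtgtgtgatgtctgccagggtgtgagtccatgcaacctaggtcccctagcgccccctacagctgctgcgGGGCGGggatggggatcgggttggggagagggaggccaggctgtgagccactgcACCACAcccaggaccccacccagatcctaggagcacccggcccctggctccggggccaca
Itgb1: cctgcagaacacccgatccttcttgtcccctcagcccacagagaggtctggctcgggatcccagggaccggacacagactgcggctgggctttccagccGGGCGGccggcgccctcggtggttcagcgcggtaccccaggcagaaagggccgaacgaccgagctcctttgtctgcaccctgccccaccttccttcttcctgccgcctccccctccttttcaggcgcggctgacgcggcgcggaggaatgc
The GC box letters began 114 bases before the Itga4 start and 151 bases before that of Itgb1, and they occurred in 32.7% of 32851 RefSeq promoter windows of the same length. The RUNX letters occurred at 60 to 55 bases before the Itga4 start and in 14.0% of windows. The letters TTCNNNGAA, which STAT factors downstream of IL-2 receptors are known to bind, were searched on both strands and occurred in 7.02% of windows and in 0 of the 5 subunit promoters listed (Itga4, Itgav, Itgb1, Itgb7 and Itgb8). The matches did not overlap each other.

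In EV no IL-2 Tregs the β subunit RNAs were the most abundant. Itgb7, the β subunit of the gut-homing receptors, was highest at 1162 ± 30.9 TPM (SD, n = 3 here and below), followed by Itgb2, the β2 chain of LFA-1, at 334 ± 8.78 TPM and Itgb1 at 250 ± 24.5 TPM. These 3 did not overlap each other in any of the 4 groups. Among α subunits, Itga4 was highest at 87.2 ± 9.28 TPM. Itgal, the α chain of LFA-1, at 63.3 ± 4.97 TPM, and Itga6, the laminin-binding α6 chain, at 57.6 ± 0.834 TPM, overlapped each other. Itgae, which encodes CD103, at 31.1 ± 1.03 TPM, also overlapped Itgb3, the β3 chain of the vitronectin receptor αvβ3, at 29.6 ± 5.01 TPM. Itgav followed at 14.8 ± 1.35 TPM and Itgb8 at 1.56 ± 0.297 TPM, without overlap. In EV+IL-2 Tregs the order changed in the middle: Itgb3 moved above every α subunit, at 57.7 ± 0.225 TPM, and Itga4 fell to the level of Itga6, at 39.0 ± 5.96 against 43.9 ± 8.62 TPM. In 3A10t Tregs the 5 subunits from Itgal down to Itgav each overlapped the next.

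**Figure D1:**
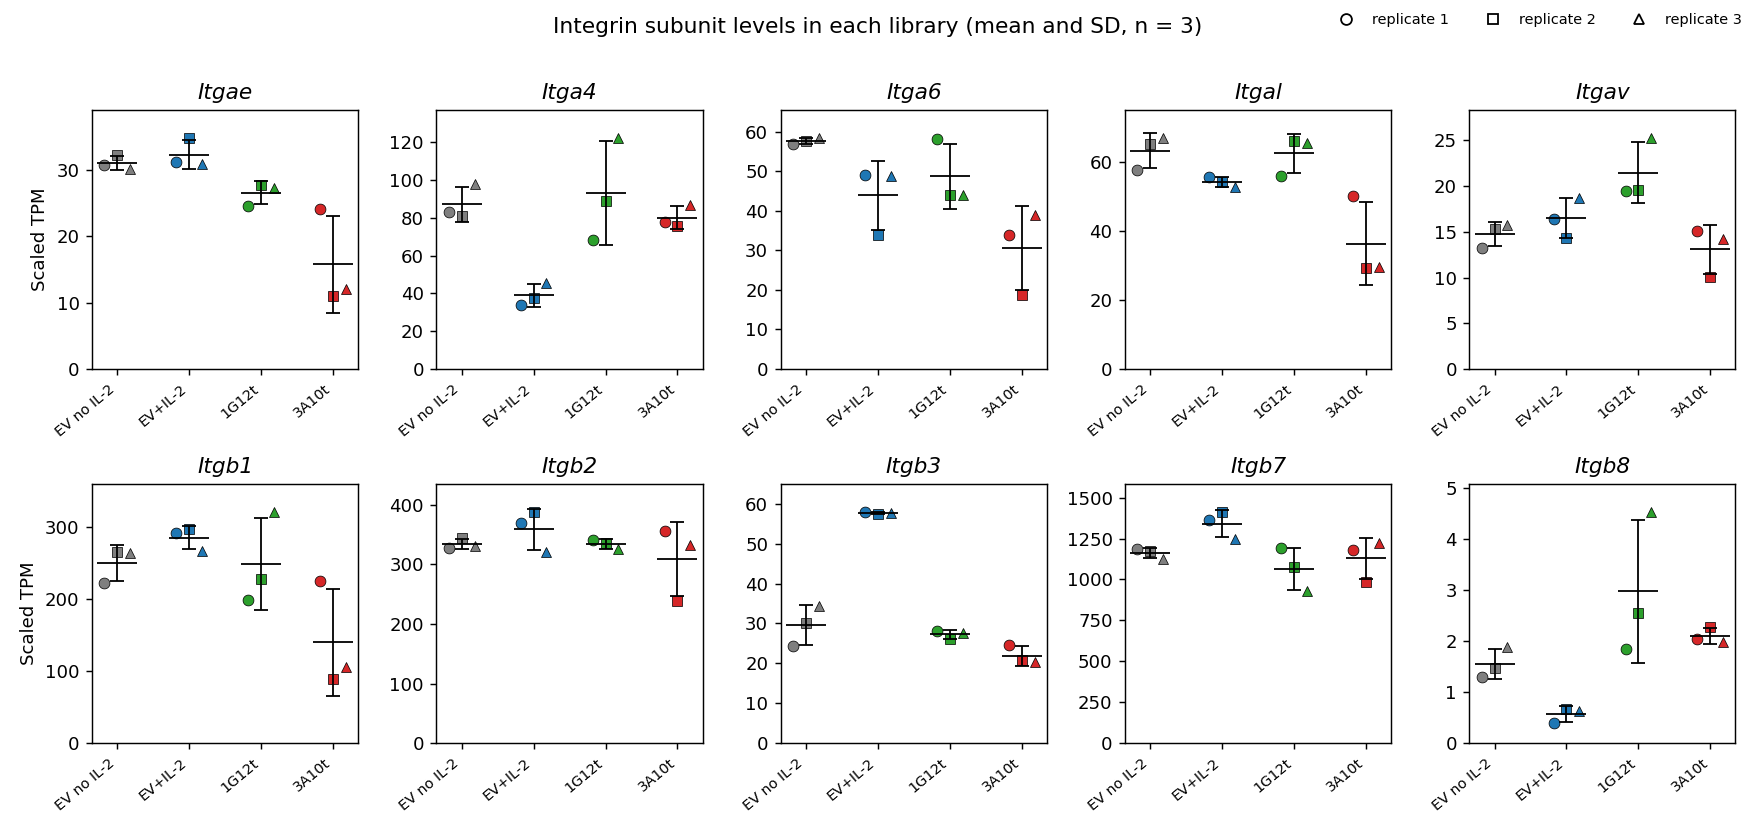
Scaled TPM (vertical axis, from 0) of the 10 integrin subunits in the 4 groups (horizontal axis). Each symbol is 1 library with its shape giving the replicate, and the lines are the mean and SD of 3 libraries. Itga4 is lowest and Itgb3 highest in the 3 EV+IL-2 libraries, and 3A10t replicate 1 stands above replicates 2 and 3 for Itgae, Itgal and Itgb1.

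IL-2 in the medium went with 1 lower α subunit and 1 higher β subunit. Itga4 was at 82.8, 81.0 and 97.9 TPM in EV no IL-2 replicates 1 to 3 and at 33.7, 37.7 and 45.4 TPM in EV+IL-2 replicates 1 to 3. The groups did not overlap, and the EV+IL-2 mean was 0.447 of the EV no IL-2 mean. In RNA of a whole culture, fewer cells with the transcript and less of it per cell cannot be told apart. On the log2(TPM + 1) scale Itga4 fell by 1.15 (SE 0.187, limma adjusted p = 0.0021). Part of Itga4 exon sequence, 1124 of 13978 exon bases, overlaps Cerkl on the opposite strand (mean 3.78 TPM), and the library kit does not mark strand.

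Itgb3 was at 24.3, 30.1 and 34.3 TPM without IL-2 and at 57.9, 57.5 and 57.5 TPM with it. All 3 EV+IL-2 libraries were higher than every library of the other groups. The log2 difference was 0.95 (SE 0.118, limma adjusted p = 0.00034), a ratio of means of 1.95. Both calls, Itga4 and Itgb3, held in each of the 24 other settings tried, which left out each library in turn or changed the scaling, filter or model. The counts of 1 higher and 1 lower among 10 subunits stand beside 8.17% of all tested genes called higher and 5.13% called lower in this comparison. The median log2 difference of the 10 was 0.08, against -0.01 over all genes.

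The remaining 8 subunits did not pass the test. The partners that Itga4 pairs with had log2 differences of 0.20 for Itgb7 (95% interval -0.02 to 0.43) and 0.19 for Itgb1 (-0.45 to 0.83). For both partners every EV+IL-2 library lay above every EV no IL-2 library, and the pooled intervals also carry the spread of the tethered groups. Itgav, the α partner of Itgb3, had 0.15 (-0.21 to 0.50), and Itgae had 0.05 (-0.43 to 0.54). For LFA-1, Itgal had -0.22 (-0.61 to 0.17) and Itgb2 0.10 (-0.19 to 0.39). Itga6 had -0.41 (-0.93 to 0.12).

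Itgb8, which forms the TGF-β-releasing αvβ8, was at 1.31, 1.48 and 1.89 TPM in EV no IL-2 Tregs and at 0.393, 0.675 and 0.640 TPM in EV+IL-2 Tregs. These groups did not overlap, but the log2 difference of -0.70 (SE 0.230) missed the threshold in limma, with an adjusted p of 0.0702. The 3690 tested genes near its level, with a mean of 1 to 3 TPM, had a median log2 difference of -0.10, and 175 of them were called lower and 176 higher. Among integrin subunits outside the 10, the 11 with a mean below 1 TPM, at 0.146 to 0.548 TPM, all had their lowest group mean in EV+IL-2 Tregs. How far this shift at low levels enters the Itgb8 value was not tested.

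**Figure D2:**
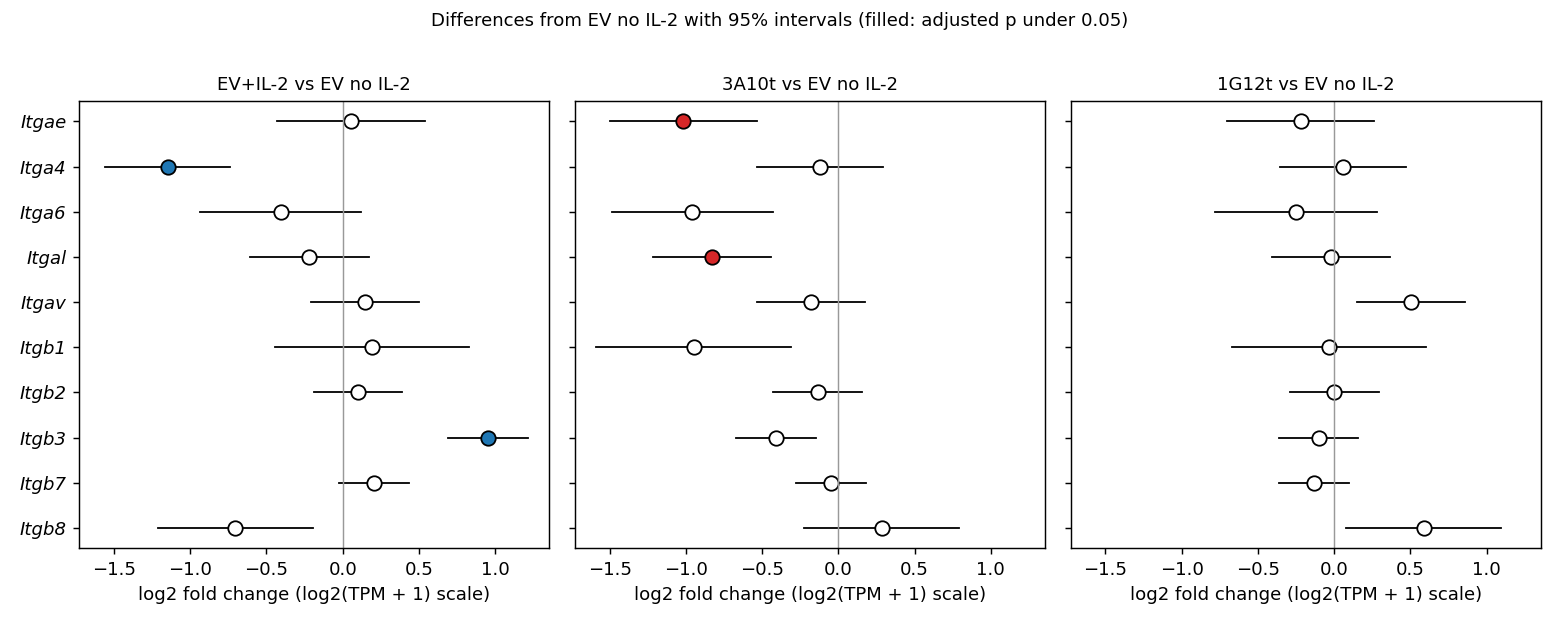
Log2 fold change with its 95% interval (horizontal axis, log2(TPM + 1) scale) of each subunit (vertical axis) in EV+IL-2, 3A10t and 1G12t Tregs against EV no IL-2 Tregs. Filled points had a limma adjusted p under 0.05 in the fit without the replicate block: Itga4 and Itgb3 with IL-2, Itgae and Itgal with 3A10t, and none with 1G12t.

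With the 3A10 tether, the subunits that passed the test were Itgae and Itgal, the α chains of CD103 and LFA-1, both lower. Itgae was at 24.1, 11.1 and 12.1 TPM in 3A10t replicates 1 to 3, against 30.7, 32.2 and 30.2 TPM in EV no IL-2 Tregs. Itgal was at 50.2, 29.1 and 29.5 TPM in 3A10t Tregs, against 57.6, 65.2 and 67.0 TPM. For both genes all 3A10t libraries lay below all EV no IL-2 libraries, with replicate 1 the nearest to them. The log2 fold change was -1.02 for Itgae (SE 0.219) and -0.83 for Itgal (SE 0.176), with a limma adjusted p of 0.0438 for each. This fit leaves out the pairing of cultures by replicate number, and neither gene passed when it was included (adjusted p = 0.0534 and 0.0551). In this comparison 0.452% of all genes were called higher and 1.6% lower, beside 0 and 2 of the 10 subunits. The median log2 difference of the 10 was -0.29, against 0.03 over all genes. Foxp3, at 463, 369 and 391 TPM in 3A10t replicates 1 to 3 and 494 ± 5.97 TPM in EV no IL-2 Tregs, and Pecam1, at 77.04, 51.4 and 47.9 TPM against 77.9 ± 2.85 TPM, had lower means in 3A10t Tregs with replicate 1 again the highest, and did not pass the limma test (adjusted p = 0.0822 and 0.164), and their part in the result was not tested.

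Itgb1, Itga6 and Itgb3 had the next smallest p-values and missed the threshold. Itgb1 was at 224, 89.5 and 105 TPM in 3A10t Tregs, against 221, 265 and 263 TPM in EV no IL-2 Tregs, so that replicate 1 lay within the control range and replicates 2 and 3 far below it. Its log2 difference was -0.95 (limma adjusted p = 0.0963). Itga6, at 33.9, 18.7 and 39.0 TPM against 56.8, 57.6 and 58.5 TPM, did not overlap and had a log2 difference of -0.96 (limma adjusted p = 0.0660). Itgb3, at 24.7, 20.7 and 20.3 TPM, had -0.41 (limma adjusted p = 0.0855). Itga4, which fell with IL-2 in the medium, was at 77.9, 75.6 and 86.7 TPM in 3A10t Tregs, a log2 difference of -0.12 (95% interval -0.53 to 0.29). Its interval for 3A10t does not reach the value of -1.15 measured with IL-2. Itgb7 (-0.05, -0.28 to 0.18), Itgb2 (-0.13, -0.43 to 0.16), Itgav (-0.18, -0.53 to 0.18) and Itgb8 (0.28, -0.22 to 0.79) did not pass the test either.

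The 3A10t calls depended on single libraries and on the model. Without 3A10t replicate 1, 5 subunits were called lower, with log2 differences of -1.35 for Itgae, -1.35 for Itgb1, -1.08 for Itgal, -1.06 for Itga6 and -0.49 for Itgb3, while 15.3% of all genes were called lower and 7.91% higher. Without 3A10t replicate 2 or without replicate 3, 0 were called, and the same held without any 1 of the 9 libraries of the other groups. With the replicate number as a block, which pairs the cultures that share a sort, 1 subunit was called, Itga6 (limma adjusted p = 0.0434), while Itgae had an adjusted p of 0.0534 and Itgal of 0.0551. The 3A10t libraries also differed from the EV no IL-2 mean by transcript length. In replicate 2 the median log2 difference of protein-coding genes was 0.40 for longest transcripts under 2 kb and -0.23 for those over 4 kb, and in replicate 3 it was 0.13 and -0.12. In replicate 1 it was 0.04 and -0.03. The longest transcripts of Itgae (3845 bases) and Itgb1 (3815 bases) fell in the middle class, where the medians in replicates 2 and 3 were -0.12 and -0.02. Those of Itgal (5222 bases), Itga6 (4310 bases) and Itgb3 (5784 bases) fell in the class over 4 kb, with medians of -0.23 and -0.12. With length corrected, Itgae was at -0.86 (limma adjusted p = 0.055) and Itgal at -0.66 (adjusted p = 0.060), and 0 subunits were called. Itga4, with the longest subunit transcript at 9767 bases but a median transcript of 2314 bases, stood at log2 differences of -0.16, -0.20 and -0.0028 in replicates 1 to 3.

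**Figure D3:**
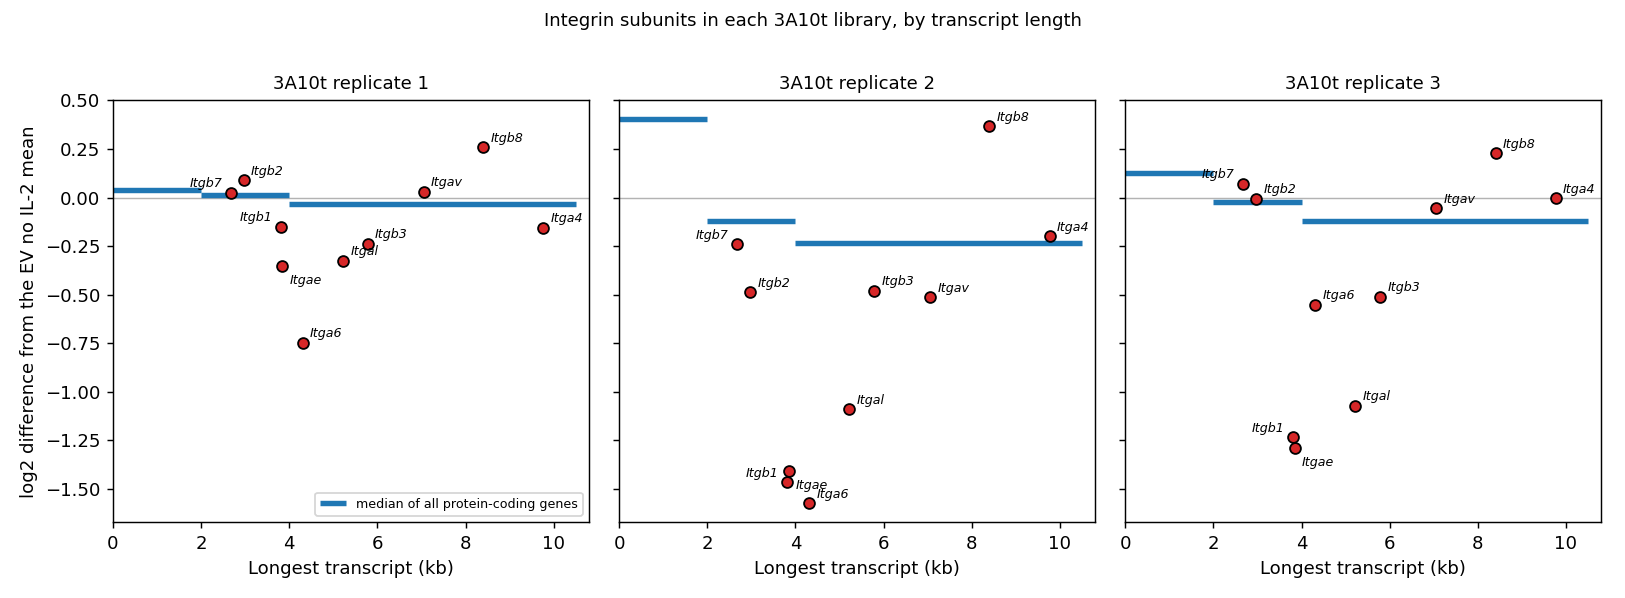
Log2 difference of each subunit from the EV no IL-2 mean (vertical axis) against its longest transcript in kb (horizontal axis), in 3A10t replicates 1, 2 and 3. Red points are the 10 subunits and blue lines the medians of all tested protein-coding genes under 2 kb, from 2 to 4 kb and over 4 kb. Itgae, Itgal and Itgb1 lie below -1 in replicates 2 and 3 and above -0.4 in replicate 1.

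With the 1G12 tether, 0 of the 10 subunits were called against EV no IL-2 Tregs. Few genes were called at all, 0.0133% higher and 0.00665% lower. The limma count of 0 subunits compares with 2 at an unadjusted p under 0.05, Itgav and Itgb8, a cut that 7.04% of all genes passed. Itgav was at 19.4, 19.6 and 25.3 TPM in 1G12t Tregs, all above the 13.2, 15.3 and 15.8 TPM of EV no IL-2 Tregs, with a log2 difference of 0.50 (95% interval 0.15 to 0.86, limma adjusted p = 0.68). It was the 1 subunit with an unadjusted limma p under 0.01 and a log2 change over 0.25, which 1.36% of all genes passed here. The authors used these cut-offs on p-values from counts, and their list of 1G12t genes does not include Itgav. Itgb8 was at 1.84, 2.56 and 4.54 TPM, overlapping the EV no IL-2 libraries, with a log2 difference of 0.59 (0.08 to 1.09, limma adjusted p = 0.70). The tested genes with a mean of 1 to 3 TPM had a median log2 difference of 0.17 in this comparison. Itgae, at 24.6, 27.8 and 27.3 TPM, lay below all EV no IL-2 libraries by a log2 difference of -0.22 (-0.70 to 0.26). For the other 7 subunits the log2 differences ran from -0.25 for Itga6 to 0.06 for Itga4.

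Set directly against 1G12t Tregs, 3A10t Tregs had lower Itgal and lower Itgav. Itgal was at 55.9, 65.9 and 65.5 TPM in 1G12t Tregs, above all 3A10t libraries, and the log2 difference was -0.81 (SE 0.176, limma adjusted p = 0.0399). Itgav was at 15.1, 10.0 and 14.2 TPM in 3A10t Tregs, below all 1G12t libraries, with a log2 difference of -0.68 (SE 0.160, limma adjusted p = 0.0451). These 2 lower and 0 higher calls stand beside 2.96% of all genes lower and 1.3% higher. Itgae (-0.80, adjusted p = 0.0588) and Itgb1 (-0.92, adjusted p = 0.0782) missed the limma threshold. Without 3A10t replicate 1, 6 subunits were called lower (Itgae, Itga6, Itgal, Itgav, Itgb1 and Itgb3), beside 15.9% of all genes lower and 11.7% higher, and without any other single library 0 were called.

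Against EV+IL-2 Tregs, both tethered groups had higher Itga4 and lower Itgb3, and Itgb8 was also called higher in both. For Itga4 the log2 difference was 1.03 in 3A10t Tregs (SE 0.187, limma adjusted p = 0.0034) and 1.21 in 1G12t Tregs (SE 0.187, adjusted p = 0.0014). For Itgb3 it was -1.36 (SE 0.118, limma adjusted p = 4.3e-05) in 3A10t Tregs and -1.06 (SE 0.118, adjusted p = 0.00017) in 1G12t Tregs. These comparisons share the EV+IL-2 libraries with each other and with the comparison of IL-2 in the medium, so they are not separate evidence on those libraries. For Itgb8 the log2 differences were 0.99 in 3A10t Tregs (limma adjusted p = 0.012) and 1.29 in 1G12t Tregs (adjusted p = 0.0030), where the median of genes with a mean of 1 to 3 TPM was 0.24 and 0.30. Itgb8, at 0.569 TPM in EV+IL-2 Tregs, met the filter only through the other groups, so its calls here are not taken as support. Without EV+IL-2 replicate 1, the Itgb8, Itgal and Itgb1 calls for 3A10t were lost. Leaving out 3A10t replicate 2 or 3 ended the Itgal and Itgb1 calls as well, as did leaving out EV+IL-2 replicate 2, and the Itgal call was also lost without EV+IL-2 replicate 3.

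In 3A10t Tregs, Itgae (-1.07, limma adjusted p = 0.0064), Itgb1 (-1.14, adjusted p = 0.017) and Itgal (-0.61, adjusted p = 0.030) also passed the test as lower. This gave 2 subunits higher (Itga4, and Itgb8, which is not taken as support) and 4 lower. The background was 10.3% of genes higher and 13.0% lower. In 1G12t Tregs the fourth call was Itgb7, at 1190, 1073 and 932 TPM against 1363, 1412 and 1247 TPM in EV+IL-2 Tregs (-0.34, SE 0.104, limma adjusted p = 0.0423). There the count was 2 higher (Itga4, and Itgb8, again not taken as support) and 2 lower, with 9.69% of all genes higher and 10.9% lower. The Itgb7 call was lost without any 1 of the EV no IL-2 libraries, without EV+IL-2 replicate 1 or 2 and without 1G12t replicate 2 or 3.

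Ratios of partner subunits, taken within a library and so free of the scaling, give the balance between chains that pair. With 3 libraries a group, the two-sided exact permutation test cannot go below p = 0.10, and over the 36 ratio comparisons the smallest Benjamini-Hochberg adjusted p was 0.20, so none could pass. The Itga4 to Itgb7 ratio was 0.0699, 0.0689 and 0.0868 in EV no IL-2 Tregs and 0.0247, 0.0267 and 0.0364 in EV+IL-2 Tregs, which did not overlap (log2 difference -1.37, exact p = 0.10). The Itgae to Itga4 ratio, the balance of the α chains that share Itgb7, was 0.371, 0.398 and 0.309 without IL-2 and 0.927, 0.924 and 0.680 with it (log2 difference 1.22, exact p = 0.10). In 3A10t Tregs it was 0.310, 0.147 and 0.140, overlapping EV no IL-2 Tregs at replicate 1.

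The Itgae to Itgb7 ratio was 0.0204, 0.0113 and 0.00991 in 3A10t Tregs, below all EV no IL-2 values of 0.0259, 0.0274 and 0.0268 (log2 difference -1.02, exact p = 0.10). EV+IL-2 Tregs, at 0.0229, 0.0247 and 0.0247, also lay below EV no IL-2 Tregs (log2 difference -0.15, exact p = 0.10) and above all 3A10t values. The ratio of the LFA-1 chains, Itgal to Itgb2, was 0.141, 0.123 and 0.0889 in 3A10t Tregs and 0.176, 0.189 and 0.203 in EV no IL-2 Tregs (log2 difference -0.71, exact p = 0.10). In EV+IL-2 Tregs it was 0.151, 0.140 and 0.164, also below EV no IL-2 Tregs (log2 difference -0.32, exact p = 0.10) and overlapping 3A10t Tregs. The Itgb7 to Itgb1 ratio ran from 5.27 in 3A10t replicate 1 to 11.6 in replicate 3, against 5.35, 4.44 and 4.28 in EV no IL-2 Tregs, where replicate 1 again lay within the control range. For the αvβ8 chains, Itgav to Itgb8 was 41.8, 21.2 and 29.3 in EV+IL-2 Tregs and 10.1, 10.3 and 8.36 in EV no IL-2 Tregs (log2 difference 1.63, exact p = 0.10). Itgb8 was at 0.39, 0.66 and 0.65 TPM as deposited in EV+IL-2 Tregs and met the filter only through the other groups. This ratio is therefore not taken as support.

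**Figure D4:**
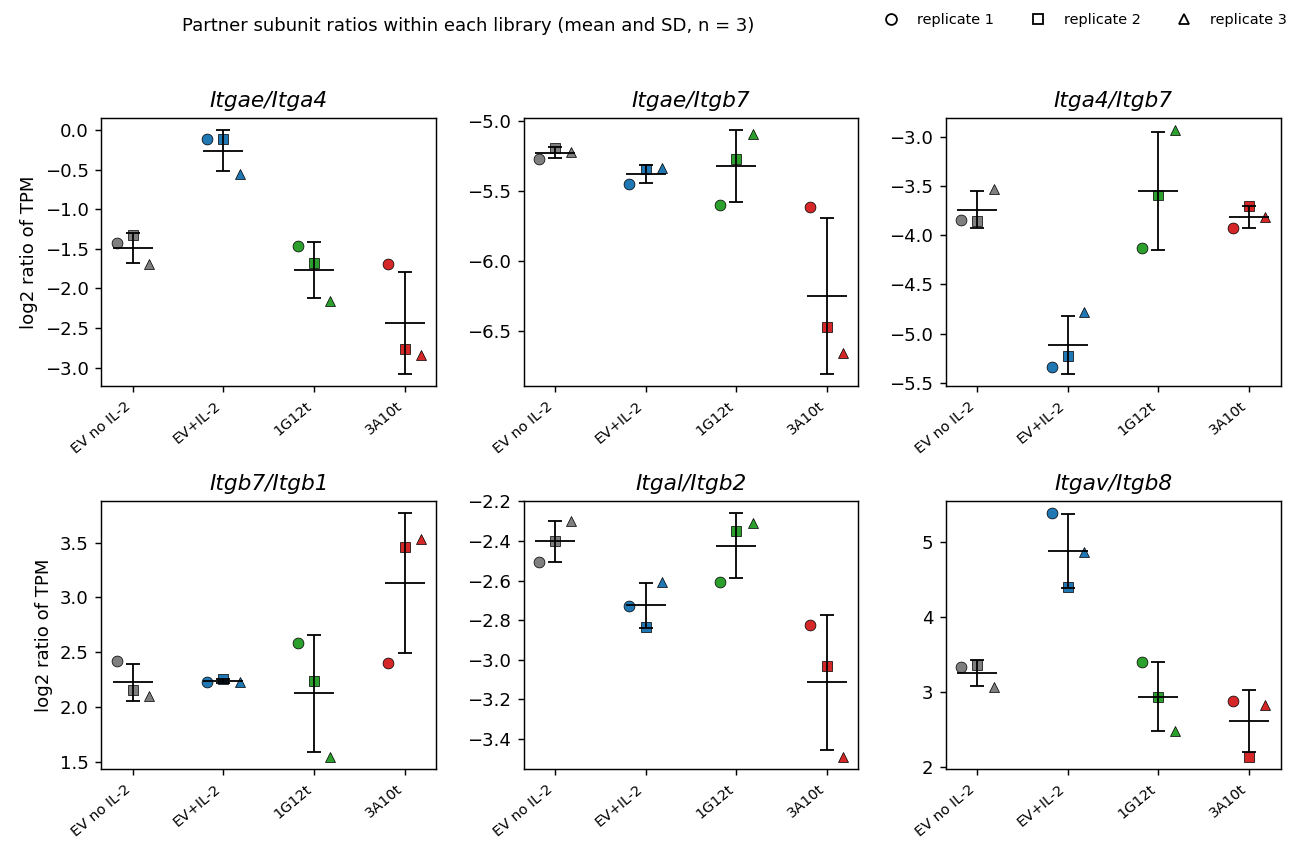
Log2 ratio of TPM of 6 subunit pairs within each library (vertical axis) in the 4 groups (horizontal axis), with symbols for replicates and lines for the mean and SD of 3 libraries. The EV+IL-2 libraries have the lowest Itga4 to Itgb7 ratios and the highest Itgae to Itga4 and Itgav to Itgb8 ratios, the last with Itgb8 below 1 TPM. For Itgae to Itgb7, 3A10t replicate 1 lies nearer the EV no IL-2 libraries than replicates 2 and 3.

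Of 17 other listed integrin subunit genes, 6 had a mean of at least 1 TPM. Itga7, a laminin-binding α chain known from muscle, was the most abundant at 17.5 ± 1.04 TPM in EV no IL-2 Tregs, 6.08 ± 0.745 TPM in EV+IL-2 Tregs, and 18.4 ± 4.58 and 13.9 ± 0.868 TPM with the 1G12 and the 3A10 tether. It was lower in EV+IL-2 Tregs by a log2 difference of -1.39 (SE 0.146, limma adjusted p = 0.00012), in the same direction as Itga4, and held that call in all 24 other settings. Itga2b, the platelet αIIb chain that pairs with Itgb3, was at 1.97 ± 0.0546 TPM without and 0.860 ± 0.302 TPM with IL-2, a log2 difference of -0.69 (limma adjusted p = 0.0210), opposite in direction to Itgb3. It met the filter on low values only through the groups other than EV+IL-2, so this call is not taken as support. The summed platelet markers moved the same way as Itga2b, from 1.34 to 1.78 TPM in EV no IL-2 to 0.53 to 0.98 TPM in EV+IL-2 Tregs. The NK cell sums, also of genes below the tested level, were 0.06 to 0.33 TPM without and 0.04 to 0.12 TPM with IL-2. The mast cell sums were 0.52 to 1.33 and 0.34 to 0.77 TPM. Tested genes with a mean of 1 to 3 TPM had a median log2 difference of -0.10 here. The part of platelet RNA or of this shift at low levels in the Itga2b value was not tested. The Itga2b call held in 16 of 23 other settings and was lost without any 1 of the EV no IL-2 libraries and without EV+IL-2 replicate 1 or 2.

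Itga5, the fibronectin-binding α5 chain, had 1.73 ± 0.485 TPM in EV no IL-2 Tregs and 0.975 ± 0.180 TPM in EV+IL-2 Tregs, and 2.70 ± 0.149 and 1.86 ± 0.403 TPM with the 1G12 and the 3A10 tether. Itga3, a laminin-binding α chain, stood between 5.94 ± 1.11 and 7.90 ± 0.280 TPM over the 4 groups, Itga2, the collagen-binding α2 chain, between 0.793 ± 0.141 and 1.31 ± 0.429 TPM, and Itgb5, an αv partner, between 1.59 ± 0.971 and 5.97 ± 2.75 TPM. Against EV+IL-2 Tregs, Itga7 (1.07) and Itgb5 (-1.40) passed the test in 3A10t Tregs, as log2 differences. In 1G12t Tregs Itga7 (1.43) and Itgb5 (-1.19, a call that held in 14 of 23 other settings) passed. Itga2b (0.89 in 3A10t and 0.92 in 1G12t) and Itga5 (0.91 in 1G12t) passed as well. Both had means below 1 TPM in EV+IL-2 Tregs and met the filter only through the other groups, so these calls are not taken as support. In limma 0 of the 6 passed in 3A10t or 1G12t against EV no IL-2 Tregs or in 3A10t against 1G12t Tregs, where 0, 2 and 1 had an unadjusted p under 0.05, beside 26%, 7.04% and 29.7% of all genes.

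Genes of the intracellular machinery that turns integrins on were not called against EV no IL-2 Tregs. Of 17 listed activators, 15 were tested, among them Tln1 (talin) at 66.2 ± 7.97 TPM, Fermt3 (kindlin-3) at 331 ± 7.32 TPM and Rap1b at 487 ± 40.5 TPM in EV no IL-2 Tregs. In limma 0 of 15 were called in EV+IL-2, 3A10t or 1G12t Tregs against EV no IL-2 Tregs, where 4, 5 and 0 had an unadjusted p under 0.05, beside 26.3%, 26% and 7.04% of all genes, and the median log2 differences were -0.03, -0.02 and -0.01. Rapgef1, a Rap exchange factor, was lower in 3A10t than in 1G12t Tregs (-0.51, limma adjusted p = 0.0497), a call that held in 4 of 24 other settings. Against EV+IL-2 Tregs, Fermt3 was lower in 3A10t (-0.26) and 1G12t Tregs (-0.32). The 3A10t call of Fermt3 held in 10 of 24 other settings, with a limma adjusted p of 0.0557 under the replicate block. Fyb, an adaptor of integrin activation, was higher than in EV+IL-2 Tregs in both (0.42 and 0.35), while Rapgef1 was higher in 1G12t Tregs (0.45). Of 24 other settings, the Fyb call held in 19 for 3A10t and 12 for 1G12t Tregs, and that of Rapgef1 in 18.

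Of 16 tested genes that link integrins to actin or signal from adhesions, Actn1 (α-actinin-1) was lower in EV+IL-2 than in EV no IL-2 Tregs, at 1.02 ± 0.111 against 3.93 ± 0.528 TPM (-1.28, limma adjusted p = 0.0036). Vcl (vinculin) was lower in 3A10t Tregs, at 2.17 ± 0.277 against 3.77 ± 0.445 TPM (-0.59, limma adjusted p = 0.0438), a call that held in 6 of 23 other settings, with an adjusted p of 0.0551 under the replicate block. Ptk2, which encodes focal adhesion kinase, was lower in 3A10t than in 1G12t Tregs (-0.77, limma adjusted p = 0.0493), which held in 6 of 24 settings and had an adjusted p of 0.0542 under the replicate block. Against EV+IL-2 Tregs, 3A10t Tregs had lower Vcl (-0.99), Ptk2 (-0.92), Pxn (paxillin, -0.56) and Parvg (-0.41) and higher Actn1 (0.98), and 1G12t Tregs had lower Vcl (-0.53) and Parvg (-0.42) and higher Actn1 (0.92). The median of the 16 in 3A10t against EV no IL-2 Tregs was -0.28, beside 0.03 over all genes. Calls in every gene list here stand beside these shares of all genes, higher and lower. They were 8.17% and 5.13% in EV+IL-2 and 0.452% and 1.6% in 3A10t against EV no IL-2 Tregs. In 3A10t against 1G12t Tregs they were 1.3% and 2.96%. Against EV+IL-2 Tregs they were 10.3% and 13.0% in 3A10t and 9.69% and 10.9% in 1G12t Tregs.

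Among 13 listed integrin ligands, 7 were tested. Lama5, a laminin chain bound by α6 integrins, was higher with IL-2, at 26.0 ± 4.32 against 8.24 ± 1.21 TPM (1.54, limma adjusted p = 7.8e-05), and Icam2, a ligand of LFA-1, was lower, at 63.6 ± 1.11 against 87.1 ± 1.20 TPM (-0.45, adjusted p = 0.0259). The Icam2 call was lost without any 1 of the 6 libraries compared. Lama5 was lower in 3A10t than in 1G12t Tregs (-0.85, limma adjusted p = 0.0295), at 7.71 ± 0.349 against 14.8 ± 2.71 TPM, a call that held in 16 of 24 other settings. Compared with EV no IL-2 Tregs, Lama5 differed by -0.08 in 3A10t, with overlap, and by 0.77 in 1G12t Tregs, without overlap. Neither passed the test (limma adjusted p = 0.76 and 0.59). Against EV+IL-2 Tregs it was lower in both tethered groups (-1.62 in 3A10t and -0.77 in 1G12t), while Icam2 (0.69 and 0.47) was higher in both, and Lamc1 was lower in 3A10t (-0.70). Fn1, which encodes fibronectin, stood at 0.939 ± 0.407 TPM in EV no IL-2, 0.170 ± 0.0479 TPM in EV+IL-2, and 1.73 ± 0.288 and 1.71 ± 0.439 TPM in 3A10t and 1G12t Tregs; it passed the filter on low values only through the tethered groups, so no call is given for it. The endothelial and epithelial ligands Vcam1, Madcam1 and Cdh1 were below 1 TPM.

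Of the 9 membrane partners, mostly tetraspanins that sit beside integrins, Cd9 was lower with IL-2 (-0.47, limma adjusted p = 0.0021), at 99.7 ± 5.59 against 139 ± 8.84 TPM. It was higher in 3A10t than in 1G12t Tregs (0.35, limma adjusted p = 0.0399), a call that held in 6 of 24 other settings. Against EV+IL-2 Tregs, Cd9 (0.60) and Slc3a2 (0.42) were higher in 3A10t and Cd9 (0.24, a call that held in 11 of 24 other settings) and Cd151 (0.52) in 1G12t Tregs. Of 4 tested genes of latent TGF-β, the substrate of αvβ8, Lrrc32, which encodes the latent TGF-β anchor GARP, was higher with IL-2 (0.87, limma adjusted p = 0.0041), at 174 ± 10.7 against 94.9 ± 6.93 TPM. Itgb8 had its lowest mean there, at 0.569 TPM, but its difference from EV no IL-2 Tregs did not pass the test (limma adjusted p = 0.0702). Lrrc32 was lower in 3A10t (-1.38) and 1G12t Tregs (-0.94) than in EV+IL-2 Tregs, and in 3A10t Tregs Furin (-0.47, a call that held in 9 of 24 other settings) was lower and Ltbp3 (1.35) higher. Ltbp3, at 0.451 ± 0.196 TPM in EV+IL-2 Tregs, met the filter only through the other groups, so its call is not taken as support.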

How the data were processed

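The members and gene lists were chosen with earlier results of these data known. RNA was copied with an oligo-dT full-length cDNA kit that does not mark strand, amplified by PCR and fragmented with a transposase. Per the labels and the study's methods, the authors trimmed reads with cutadapt 1.18, aligned them with STAR 2.5.3 to GRCm38 and estimated expression with RSEM 1.3.0 and a GENCODE annotation, and they deposited TPM, 1 column per library. The authors ran DESeq2 1.26 on counts, which are not analysed here, so no count model was fitted and depth is unknown. TPM keep no counting error.

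TPM were divided by median-of-ratios factors over genes with a mean of at least 1 TPM. limma 3.58.1 in R 4.3.3 (lmFit, eBayes with a trend) was run on log2(scaled TPM + 1), a scale that understates changes of low genes, over 15043 genes and all 12 libraries, with Benjamini-Hochberg adjustment per comparison and calls at an adjusted p under 0.05. The script was tested on simulated data. Partner ratios used deposited TPM and exact permutation tests without the pairing by replicate number (scipy 1.17.1). Every member was named; of the other lists, the text names genes called without overlap between the groups (up to 6 a direction) and every other integrin subunit with a mean of at least 1 TPM. One gene of the homing receptor list is not reported here. Alternatives were pseudocounts of 0.1 and 5, no filter or a mean of 5 TPM, unscaled TPM, quantile normalization, eBayes without a trend, the replicate block, a fit of the 6 libraries of a comparison alone and each library left out. Corrections for transcript length and a fit of protein-coding genes alone were added after seeing the data. Gene positions and lengths came from GENCODE M21 (GRCm38), which held 53569 of the 55228 symbols; 5 of the 10 subunits matched the RefSeq promoter table.

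By the labels, the replicate number marks a shared sort and activation, so it pairs cultures across groups. Deviations of same-numbered libraries from their group means had a mean correlation of 0.041 over 18 pairs (-0.105 to 0.155), against -0.020 over 36 pairs with different numbers. The fit without the block was kept as the main one because the study's methods state none, so the main calls leave this pairing out. With the block, limma did not call Itgae (adjusted p = 0.0534) or Itgal (0.0551) in 3A10t against EV no IL-2 Tregs. It called Itga6 there (adjusted p = 0.0434).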

Additional observations from a re-analysis of the deposited data

How the results depend on the processing

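Beside the main fit, 24 settings were run. In EV+IL-2 against EV no IL-2 Tregs the Itga4 and Itgb3 calls held in all of them, with log2 differences of -1.26 to -1.05 and 0.82 to 1.06, and Itgb8 was called in 6 of 23, between -1.32 with a pseudocount of 0.1 and -0.24 with a pseudocount of 5. For 3A10t against EV no IL-2 Tregs (main count 2 subunits), 0 were called with no filter, after quantile normalization, with only the 6 libraries compared, with eBayes without a trend, and with the length correction, alone or with the replicate block. The replicate block alone gave 1, beside 91 higher and 311 lower of 15043 genes. Leaving out single libraries gave 0 to 5. For 3A10t against 1G12t Tregs (main count 2), 0 were called with no filter, with only the 6 libraries compared, with eBayes without a trend, and with the length correction, alone or with the block. Quantile normalization gave 1, beside 187 higher and 293 lower of 15043 genes. Protein-coding genes alone gave 4, beside 555 higher and 832 lower of 11052 genes, against 196 and 446 of 15043 in the main fit. Leaving out single libraries gave 0 to 6. For 3A10t against EV+IL-2 Tregs (main count 6, with Itgb8 among them), only the 6 libraries compared gave 3 (Itga4, Itgb3 and Itgb8), beside 678 higher and 922 lower of 14504 genes. Leaving out EV+IL-2 replicate 1 also gave 3 (Itgae, Itga4 and Itgb3), beside 815 higher and 1149 lower of 15241 genes. Counts for 1G12t against EV no IL-2 and EV+IL-2 Tregs stayed within 1.5 times of 0 and 4. Signs turned for log2 differences near 0: Itgae with IL-2 became -0.0061 in TPM as deposited, and in 3A10t against EV no IL-2 Tregs leaving out single libraries gave -0.24 to 0.036 for Itgb2 and -0.11 to 0.043 for Itgb7, both above 0 without 3A10t replicate 2. TPM as deposited moved the median of all genes in 3A10t against EV no IL-2 Tregs from 0.03 to -0.09 and against 1G12t Tregs from -0.02 to -0.18. The ratio differences given with a log2 value were between groups that do not overlap, so leaving out a library could not change their sign. The replicate block changed no other subunit call; in the other lists it also ended the calls of Fermt3 in 3A10t (adjusted p = 0.0557) and Cd9 in 1G12t Tregs (adjusted p = 0.0535) against EV+IL-2 Tregs. Of the called genes of the other lists, 5 of 9 held in every setting for EV+IL-2 against EV no IL-2, 10 of 19 for 3A10t against EV+IL-2 and 5 of 17 for 1G12t against EV+IL-2 Tregs. Of all genes, 308 were called in 3A10t against EV no IL-2 Tregs, from 9 with only the 6 libraries compared to 3469 without 3A10t replicate 1, and 642 in 3A10t against 1G12t Tregs, from 12 to 4139 under the same settings and 987 under the replicate block. Apart from the length of the transcripts and the smaller sets of libraries or genes, the cause of these changes was not tested.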

Other observations

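The RNAs whose levels over the 12 libraries were most like those of Itgb3, among 10042 genes with a mean of at least 5 TPM, were Gbp4 (Pearson r = 0.98) and Gbp6 (r = 0.97), which encode interferon-inducible guanylate-binding proteins, and Smc5 (r = 0.97), which encodes a chromosome maintenance protein. Gbp4 stood at 138 ± 12.4 TPM in EV+IL-2 Tregs and at 46.3 ± 5.24, 42.7 ± 2.74 and 35.2 ± 3.46 TPM in EV no IL-2, 1G12t and 3A10t Tregs (SD, n = 3). For Itga4 the most alike were Prg4 (r = 0.98), which encodes lubricin, Sntb1 (r = 0.98), a syntrophin, and Qprt (r = 0.97), an enzyme of NAD synthesis. Prg4 reached 16.1 ± 1.03 TPM in EV no IL-2 Tregs, 17.1 ± 3.68 TPM with the 1G12 tether and 16.2 ± 0.825 TPM with the 3A10 tether, against 6.87 ± 0.245 TPM in EV+IL-2 Tregs. These correlations describe 12 libraries that fall into 4 groups.

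Among the other homing and exit receptors listed, S1pr1, the receptor used to leave lymph nodes, was lower in EV+IL-2 than in EV no IL-2 Tregs, at 587 ± 35.4 against 863 ± 22.8 TPM (log2 difference -0.56, limma adjusted p = 0.0143), and was higher in 1G12t than in EV+IL-2 Tregs (0.40, adjusted p = 0.0464), the latter in 13 of 24 other settings. Cd44 and Selplg did not pass the limma test in any of the 6 comparisons. The stromal and endothelial marker Pecam1 was lower in EV+IL-2 Tregs as well (-0.66, adjusted p = 0.0327), while the other 3 genes of its list were below the tested level.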
